A study of Homo sapiens with 3 samples.

Results

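The L6 tetraspan family is a small group of proteins that cross the plasma membrane 4 times, and it is described here in HT29, an established human colon adenocarcinoma cell line. The 5 genes considered are TM4SF1, TM4SF4, TM4SF5, TM4SF18 and TM4SF20. Every probe set that the array's annotation assigns to exactly 1 of them was taken, which gave 10 of the 41091 probe sets with 1 gene. The family was chosen by the low value of TM4SF4 in the miR-146a arrays relative to the vector array, so the differences of its members from the vector are given as a description, with no test. TM4SF19 also belongs to the family and is not analysed here.

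HT29 cells carrying a lentiviral miR-146a expression construct were hybridised to 2 arrays, labelled replicates 1 and 2, and HT29 cells given the empty lentiviral vector to 1 array. All cells were transduced and grown in serum-containing DMEM. The sources used here do not say whether the 2 replicates were grown as separate cultures or whether the transduced lines were pools or single clones, so the spread between replicates may be technical and the vector has no replicate. Values are the authors' log2 expression per probe set, for which a step of 1 is a doubling.

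L6 proteins resemble the true tetraspanins in layout but form a separate family by sequence, although several tetraspanins once carried TM4SF names. They gather with integrins and growth factor receptors in membrane patches and are known for effects on adhesion, migration and proliferation. TM4SF4, also called il-TMP, is typical of intestine and liver. TM4SF1 is the L6 antigen found on many carcinomas and on endothelium, TM4SF5 is a partner of integrins studied in liver, TM4SF18 is known from endothelium (in zebrafish it amplifies growth factor signalling), and TM4SF20 of the intestine regulates the cleavage of the transcription factor CREB3L1. miR-146a is a microRNA best known as a brake on innate immune signalling.

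The mature miR-146a-5p, the main product of the miR-146a hairpin, is shown because miR-146a defines the treated cells. In the RefSeq annotation of GRCh38.p14 it lies at chr5:160485372-160485393 on the plus strand, and capitals mark its seed, bases 2 to 8.
hsa-miR-146a-5p: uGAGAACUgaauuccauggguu

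TM4SF18, TM4SF1 and TM4SF4 are consecutive protein-coding genes on chromosome 3. The 250 bases before the annotated starts of TM4SF4 and TM4SF1 are shown because these are the 2 neighbours with strong array signal, and because only TM4SF4 lay far from the vector. They come from RefSeq's promoter table on GRCh38.p14, for TM4SF4 at chr3:149474447-149474696 on the plus strand and for TM4SF1 at chr3:149377650-149377899 on the minus strand. Capitals mark matches to the motifs described next.
TM4SF4: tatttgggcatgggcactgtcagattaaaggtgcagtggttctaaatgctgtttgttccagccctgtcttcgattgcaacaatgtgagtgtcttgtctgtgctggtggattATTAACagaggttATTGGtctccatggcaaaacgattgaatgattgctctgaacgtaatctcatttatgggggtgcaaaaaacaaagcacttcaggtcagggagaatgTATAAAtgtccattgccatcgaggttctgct
TM4SF1: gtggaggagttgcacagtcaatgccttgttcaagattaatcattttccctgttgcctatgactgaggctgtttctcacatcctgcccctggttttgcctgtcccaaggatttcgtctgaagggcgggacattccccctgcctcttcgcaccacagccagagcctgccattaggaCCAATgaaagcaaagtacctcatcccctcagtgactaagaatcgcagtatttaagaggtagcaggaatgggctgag

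The 2 upstream regions differ in these letters. TM4SF4 holds TATAAA, a form of the TATA box, starting 31 bases before the annotated start. Of 35116 promoters of the same length, 10.7% contain this sequence on either strand. It also holds GTTAAT, part of a site for the HNF1 factors of liver and gut, on the reverse strand starting 139 bases before the start, as do 6.23% of promoters. TM4SF1 has neither of these exact sequences, and both genes have 1 CCAAT, which 32% of promoters contain. Other forms of the TATA box were not searched, so the missing TATAAA does not show that TM4SF1 lacks one. The hypoxia response core ACGTG (18.5% of promoters), the interferon response core GAAANNGAA (6.88%) and the AP-1 site TGANTCA (6.57%) did not occur in the 250 bases upstream of any of the 5 genes. Both strands were searched, the matches shown do not overlap one another, and they are letters only.

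TM4SF4, a member typical of intestine and liver, was the family member far from the vector. Its single probe set read 10.34 and 10.34 in miR-146a replicates 1 and 2, against 11.26 in the vector array. The 2 miR-146a arrays nearly coincided, and both lay below the vector. Of the probe sets above the filter, 83.5% had a gap between replicates at least this wide. Replicates were exactly equal in 12.9% of genes tested, so such closeness is not rare here. The mean was 10.34 ± 0.005 (SD, n = 2) in miR-146a cells, a log2 difference of -0.92, or 1.90-fold lower. By that difference TM4SF4 was number 5 from the lowest of 12444 genes tested. It is 1 of the 37 genes that lay 1.5-fold or more below the vector in both arrays, which is 0.297% of those tested, a share that says nothing further here since TM4SF4 was chosen on this value.

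The value does not tell fewer TM4SF4-expressing cells from less TM4SF4 RNA per cell. No second probe set of TM4SF4 exists among those used, so nothing else on the arrays checks this reading. In the same arrays the control probe sets at the 5′ ends of ACTB and GAPDH, a sign of RNA integrity, gave log2 differences between -0.32 and -0.18, while those at the 3′ ends gave -0.025 to 0.05. The part of RNA quality in the TM4SF4 value was not tested.

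**Figure D1:**
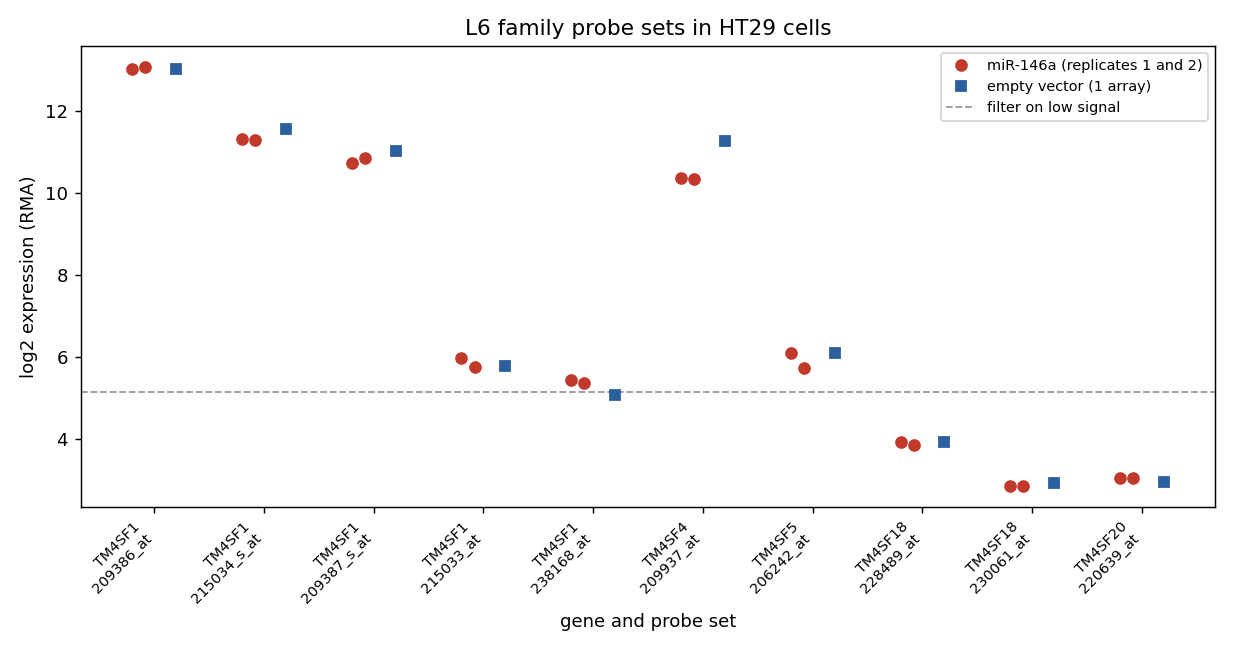
Log2 expression (vertical axis) of the 10 probe sets of the L6 family (horizontal axis), with red circles for miR-146a replicates 1 and 2, a blue square for the single vector array and a dashed line at the filter on low signal, 5.13. TM4SF4 shows the widest gap, with both miR-146a arrays at 10.34 and the vector at 11.26, while the 3 probe sets of TM4SF18 and TM4SF20 lie below the line.

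TM4SF1, the L6 antigen next to TM4SF4 on the chromosome, was strongly detected and lay much nearer to the vector. Its 5 probe sets did not point one way. The probe set with the highest signal (209386_at) read 13.01 and 13.07 in the miR-146a arrays, against 13.02 in the vector array. The vector lay between the 2 replicates, and the mean log2 difference was 0.02.

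Another TM4SF1 probe set (215034_s_at) read 11.31 and 11.28 in the miR-146a arrays, against 11.56 in the vector array, a log2 difference of -0.26. The third (209387_s_at) read 10.73 and 10.83 in the miR-146a arrays, against 11.02 in the vector array, a difference of -0.24. In both, each miR-146a array lay below the vector by more than the replicates lay apart.

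The remaining TM4SF1 probe sets had weak signal. One (215033_at) read 5.96 and 5.73 in the miR-146a arrays, against 5.78 in the vector array, with the vector between the replicates. The other (238168_at) read 5.44 and 5.36 in the miR-146a arrays, against 5.05 in the vector array, a log2 difference of 0.34 with both replicates above the vector. Of the 5, 2 were therefore lower in both arrays, 1 was higher in both and 2 had the vector in between, and their average gave a difference of -0.015. The lower readings of 215034_s_at and 209387_s_at are of the same size as those of the 5′ control probe sets. The sources used here do not place these probe sets along the transcript, and the part of RNA quality in the disagreement was not tested.

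TM4SF5, the partner of integrins, had 1 probe set with modest signal and unequal replicates. It read 6.09 and 5.71 in miR-146a replicates 1 and 2, against 6.09 in the vector array. Replicate 1 equalled the vector exactly and replicate 2 lay below both, so the mean of 5.90 ± 0.27 (SD, n = 2) differed from the vector by -0.19, less than the gap of 0.38 between the replicates. Of the probe sets above the filter, 1.25% had a gap between replicates at least this wide. Exactly equal values are common in this table. They made up 19.3% of probe sets between the 2 miR-146a arrays, 16.9% between replicate 1 and the vector and 18.6% between replicate 2 and the vector.

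TM4SF18 and TM4SF20 gave signals below the filter and were not among the genes tested. The TM4SF18 probe set with more signal (228489_at) read 3.93 and 3.83 in the miR-146a arrays, against 3.93 in the vector array, and the other (230061_at) read 2.85 in both, against 2.91 in the vector array. TM4SF20 read 3.04 in both miR-146a arrays, against 2.95 in the vector array. These differences, from -0.07 to 0.09 on the log2 scale, lie at the bottom of the array's range, and are given as readings only, since no detection calls accompany the values used here.

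In all, 3 of the 5 genes passed the filter, and with 1 probe set each only TM4SF4 of these was lower than the vector in both arrays, where 28.8% of genes tested were. TM4SF4 was also the only one at least 1.5-fold apart in either direction, against 0.844% of genes tested. The choice of the family used this contrast, so neither count is read against its background. The TM4SF4 difference was -0.92 with either extra normalization. Leaving out either miR-146a array only restates its difference in the other, -0.93 to -0.92, and is no check on it. TM4SF1 and TM4SF5 had differences from -0.01 to 0.05 and from -0.38 to 0.00 under the same changes.

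**Figure D2:**
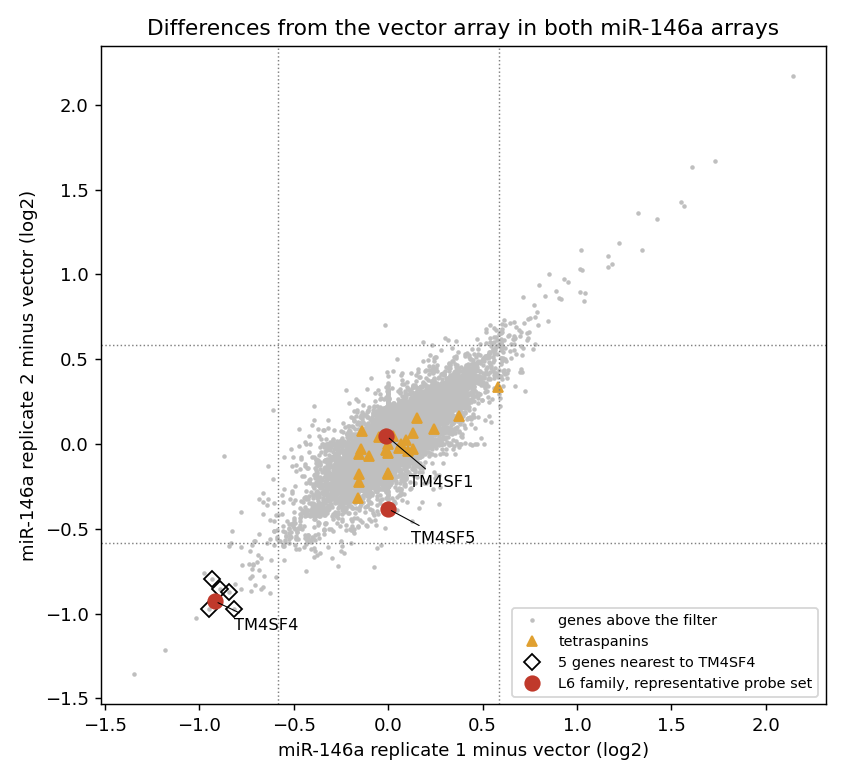
Log2 difference from the vector in miR-146a replicate 1 (horizontal axis) and replicate 2 (vertical axis) for the 12444 genes above the filter, with dotted lines at 1.5-fold. TM4SF4 (-0.92 in replicate 1 and -0.93 in replicate 2) lies at the lower left among the 5 genes nearest to it, while TM4SF1, TM4SF5 and the tetraspanins lie inside the lines in at least 1 array.

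The genes nearest to TM4SF4 by distance over the 2 array differences, a measure that rests on 3 arrays and a shared vector array, were CEACAM6, AHNAK2, CAV1, MICOS10P1 and COXFA4L2, at distances of 0.057 to 0.133. CEACAM6, an adhesion protein of gut epithelium, read 7.40 and 7.38 in the miR-146a arrays, against 8.35 in the vector array. AHNAK2, a giant scaffold protein, read 7.36 and 7.39 in the miR-146a arrays, against 8.25 in the vector array. CAV1, a caveolar coat protein, read 7.86 and 7.83 in the miR-146a arrays, against 8.71 in the vector array. The second probe set above the filter was at -1.20 for CEACAM6 and at -0.52 for CAV1. MICOS10P1, a pseudogene, differed by -0.89 and COXFA4L2, a mitochondrial protein, by -0.86. AHNAK2, MICOS10P1 and COXFA4L2 had, like TM4SF4, no other probe set above the filter.

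Among the chromosomal neighbours of the 3 clustered genes, those above the filter had differences from -0.29 to 0.09. Of the 10 protein-coding genes on either side in the RefSeq table (GRCh38.p14), 19 had a probe set of their own and 9 passed the filter, of which 6 were lower and 2 higher in both arrays, where 28.8% of all genes tested were lower in both. Their median log2 difference was -0.08, against 0.01 over all genes tested. limma with Benjamini-Hochberg adjustment called 0 of the 9. Exact ties between the miR-146a arrays kept this fit from making calls, so its 0 says nothing about these genes. The alternative prior described with the tetraspanins also called 0, against 7.12% of all genes tested. WWTR1, which encodes the YAP partner TAZ and directly follows TM4SF4, had a signal below the filter, with differences of -0.14 and -0.04.

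SELENOT, a selenoprotein of the endoplasmic reticulum, was the lowest neighbour above the filter, with 9.19 and 9.17 in the miR-146a arrays, against 9.47 in the vector array, and a second probe set at -0.08. HPS3, a subunit of a complex that builds lysosome-related organelles, read 10.13 in both miR-146a arrays, against 10.29 in the vector array, but its other probe sets ranged from -0.49 to 0.08. EIF2A, an initiation factor, read 11.07 and 11.09 in the miR-146a arrays, against 11.24 in the vector array. The highest were RNF13, a ubiquitin ligase, at 0.09 (-0.16 in a second probe set) and PFN2, which binds actin, at 0.07. None of the neighbours above the filter reached 1.5-fold in both arrays.

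**Figure D3:**
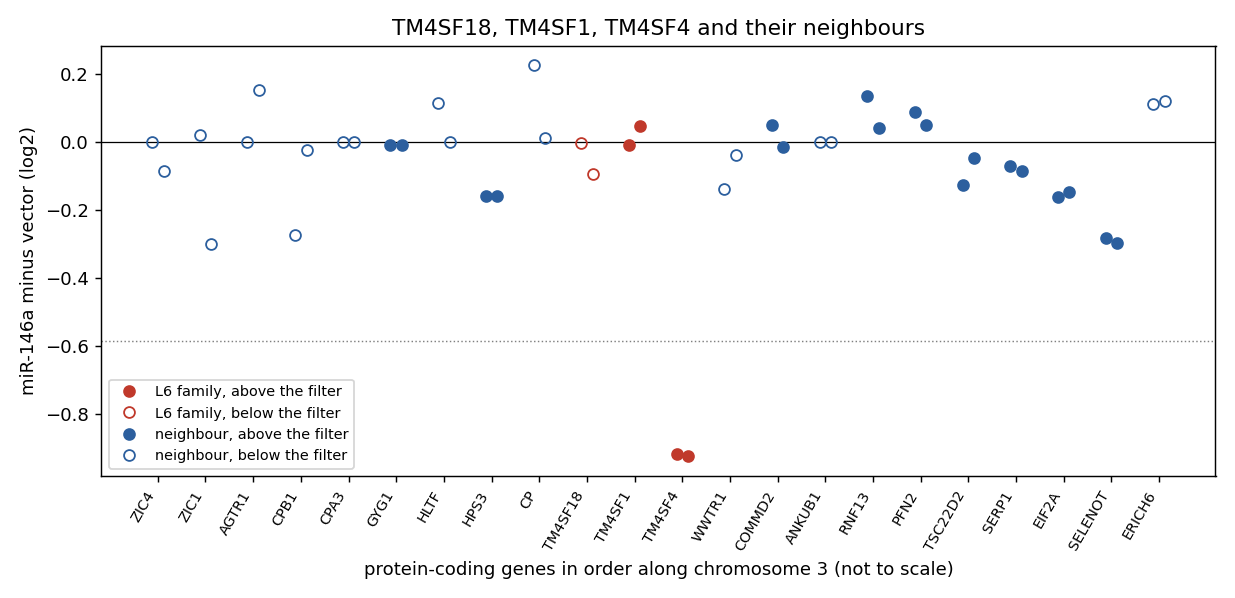
Log2 difference from the vector (vertical axis) in miR-146a replicates 1 and 2 (left and right circle of each pair) for protein-coding genes in their order along chromosome 3 (horizontal axis, not to scale), filled where the gene passed the filter. TM4SF4, at -0.92 and -0.93, lies below the dotted 1.5-fold line, and both its L6 neighbours and the other genes lie above it.

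The true tetraspanins, which share the 4-span layout, were compared as a family. limma with Benjamini-Hochberg adjustment called 0 of the 12444 genes tested (0%). On simulated data with the exact ties seen here, this fit recovered 0% of changes of 1 log2 step. Its 0 calls therefore say nothing about the genes of any list. With a variance prior estimated only on genes with unequal replicates, limma called 7.12% of genes, 592 higher and 294 lower. This alternative was known beforehand to change the calls. In that simulation the alternative prior made 28 false calls, against 3 without ties. Its calls may therefore include more false ones than the threshold of 0.05 implies. Of 33 tetraspanins, 32 had a probe set of their own and 25 passed the filter. In limma 0 of the 25 passed, and the alternative prior called 1, ROM1, as higher. By direction 7 were higher and 8 lower in both arrays, where 28.8% of all genes tested were lower in both. The share of all genes higher in both is not given here, for this or the other lists. The median difference of the tetraspanins was 0.00, against 0.01 over all genes tested.

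ROM1, a tetraspanin of photoreceptors, read 5.87 and 5.63 in the miR-146a arrays, against 5.29 in the vector array, close to the filter of 5.13. By the array difference nearer to 0, TSPAN11, with a mean difference of 0.27, and TSPAN15, a partner of the protease ADAM10, with 0.15, came next, although TSPAN4 had a larger mean of 0.16. By the same measure the lowest tetraspanins were TSPAN31 at -0.24 (-0.43 in a second probe set), TSPAN1, an epithelial tetraspanin, at -0.17 and CD9, a widespread organiser of membrane patches, at -0.19. CD9 read 12.05 and 11.98 in the miR-146a arrays, against 12.20 in the vector array, while a second probe set above the filter was at 0.77, so the array does not settle its direction. No tetraspanin reached 1.5-fold in both arrays with the probe set used per gene.

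Proteins reported to act with L6 members, a list drawn from general knowledge, were mostly near the vector. Of 20 listed, 18 had a probe set of their own and all of these passed the filter. Of them 4 were higher and 8 lower in both arrays, where 28.8% of all genes tested were lower in both. CD9, CD63, CD81 and CD151 are also on the tetraspanin list, so the counts of these lists overlap. CD9 is among the 8 lower, although its second probe set was at 0.77. Their median difference was -0.034, against 0.01 over all genes tested. limma called 0 of the 18, which the ties fixed in advance. With the alternative prior 1 was called, ITGA2, as lower, where 7.12% of all genes tested were called in either direction.

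ITGA2, the collagen-binding integrin subunit with which TM4SF5 associates, read 7.54 and 7.62 in the miR-146a arrays, against 8.10 in the vector array. Both replicates lay below the vector, at 1.43-fold lower on average, while a second probe set above the filter was at -0.13. CREB3L1, the membrane-bound transcription factor regulated by TM4SF20, read 8.25 and 8.33 in the miR-146a arrays, against 8.43 in the vector array, a difference of -0.14. ITGA5, the fibronectin receptor subunit, differed by 0.21. EGFR differed by 0.15 with its other probe sets from -0.12 to 0.48, and the tetraspanin CD81 differed by 0.10.

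**Figure D4:**
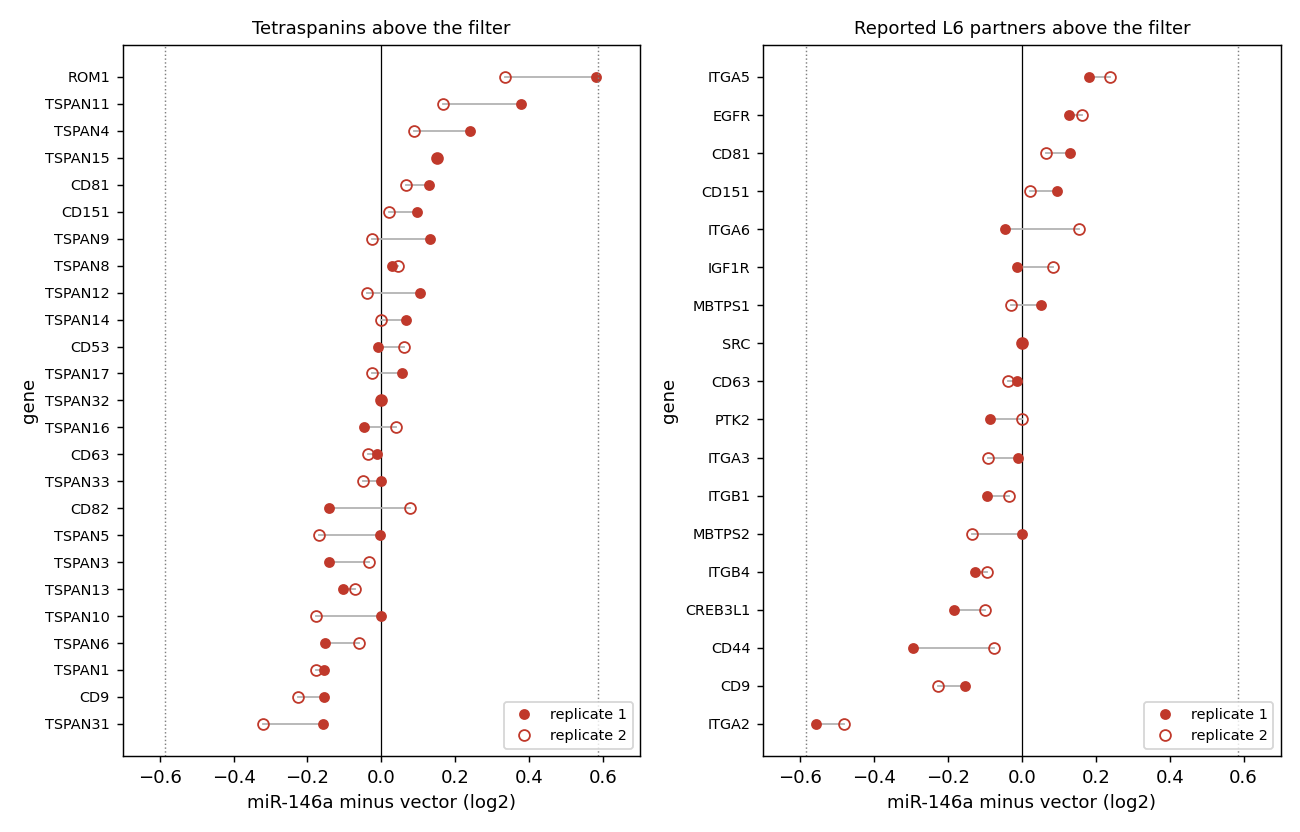
Log2 difference from the vector (horizontal axis) in miR-146a replicates 1 and 2 (filled and open circles) for the 25 tetraspanins and 18 reported partners above the filter (vertical axes), with dotted lines at 1.5-fold. ITGA2, with a mean of -0.52, is the lowest partner and ROM1, with a mean of 0.46, the highest tetraspanin.

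Genes of differentiated enterocytes, listed because TM4SF4, TM4SF5 and TM4SF20 are known from intestinal epithelium, did not go one way. Of 20 listed, 18 had a probe set of their own and 8 passed the filter. Of the 8, 3 were higher and 3 lower in both arrays, where 28.8% of all genes tested were lower in both. Their median difference was -0.0053, against 0.01 over all genes tested. limma called 0 of the 8, which the ties fixed in advance. The alternative prior called CDH17 as lower, where it called 7.12% of all genes tested in either direction. CDH17, an intestinal cadherin, read 5.39 and 5.24 in the miR-146a arrays, against 5.86 in the vector array. DPP4, a brush border peptidase, differed by -0.41 with its other probe sets from -0.85 to -0.82. The transcription factors CDX1, CDX2 and GATA6 lay at -0.06, 0.07 and 0.06, and VIL1, villin of the brush border, lay at 0.10.

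Most markers of colon epithelium passed the filter, which uses the group means and is not a call of presence on each array. Of 8 colon epithelial markers 7 passed the filter (EPCAM, KRT8, KRT18, KRT20, CDH1, CDX2 and VIL1, but not GPA33). The median difference over all 8, GPA33 included, was 0.0052. Of 5 endothelial markers, listed because TM4SF1 and TM4SF18 are known from endothelium, only PECAM1 passed the filter, and the summed log2 values of the list were 21.6 and 21.8 in the miR-146a arrays, against 21.6 in the vector array. COL1A1 and DCN were the 2 fibroblast markers of 5 above the filter, and CD14 and LYZ the 2 leukocyte markers of 4 with a probe set. LYZ, lysozyme, which gut epithelium can also make, read 12.72 and 12.96 in the miR-146a arrays, against 12.95 in the vector array. PTPRC, the defining leukocyte surface protein, read 3.36 and 3.30 in the miR-146a arrays, against 3.43 in the vector array, below the filter. The summed fibroblast values were 24.1 and 24.5 in the miR-146a arrays, against 24.4 in the vector array, and the leukocyte sums were 27.5 and 27.3 in the miR-146a arrays, against 27.5 in the vector array. The 2 probe sets of the MIR146A host transcript lay below the filter and do not read the mature microRNA, so they do not check the treatment. One gave 5.03 and 5.23 in the miR-146a cells, against 4.82 in the vector cells. The other gave 2.79 and 2.82 in the miR-146a cells, against 2.96 in the vector cells.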

How the data were processed

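The deposited table holds log2 expression values for each probe set on Affymetrix arrays, made by the authors with RMA per the submitters' processing notes; the sources used here give neither its version nor whether other arrays were processed alongside. Values spanned 1.95 to 14.45 over 54613 probe sets besides controls. The number of arrays, the unreplicated vector and exact ties between arrays limit the precision. Gene names came from the platform annotation, with symbols updated by Entrez number to the RefSeq gene table.

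Per gene, the probe set with the highest mean of the group means was used, and genes above the median of all probe sets (5.13) were tested, 12444 of 19775. Differences are miR-146a mean minus vector. The test was limma 3.58.1 in R 4.3.3, two-sided, adjusted over all genes by the Benjamini-Hochberg method at a threshold of 0.05; the single vector array is assumed to vary like the miR-146a arrays. Further settings were all probe sets averaged, quantile or cyclic loess normalization on top, other filters, other variance priors and leaving out either miR-146a array. The fit was tested on simulated data, where the exact ties seen between the miR-146a arrays kept the standard prior from making calls. With those ties the alternative prior made 28 false calls, against 3 without them.

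The members, gene lists and motifs were chosen with earlier results of these data known. Named genes are all members, up to 3 of each list in each direction by the smaller array difference, and the 5 nearest to TM4SF4. Figures used matplotlib 3.10.9.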

Additional observations from a re-analysis of the deposited data

How the results depend on the processing

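The TM4SF4 difference was -0.92 with quantile and -0.92 with cyclic loess normalization; leaving out an array restates its 2 array differences (-0.93 to -0.92), and with 1 probe set the average of probe sets cannot differ. The count of L6 members above the filter that were lower in both arrays was 1, and became 2 with cyclic loess normalization, where TM4SF5 moved just below the vector in replicate 1, and 2 without the filter, where TM4SF18 entered. It was 2 without replicate 1 and 2 without replicate 2, since then only 1 array has to be lower. With the variance prior taken from genes with unequal replicates, limma called 592 genes higher and 294 lower over all genes, 1 tetraspanin higher, 1 reported partner lower and 1 enterocyte gene lower, where the standard prior called 0 of each. The 68 genes at least 1.5-fold higher became 39 with probe sets averaged, and the 37 lower became 22 with the filter at percentile 70; with either miR-146a array left out they were 88 to 112 and 60 to 61. The list medians were small and moved with the setting. For tetraspanins (0.00) the median was 0.030 with probe sets averaged, 0.029 without the filter and -0.025 at percentile 70, and -0.025 to 0.00 with an array left out. For reported partners (-0.034) it was -0.058 with probe sets averaged, -0.017 with quantile normalization, and -0.032 to -0.012 with an array left out. For the chromosome 3 neighbours (-0.08) it was -0.11 with probe sets averaged, -0.0087 without the filter, and -0.071 to -0.046 with an array left out. For enterocyte genes (-0.0053) it was -0.032 to 0.065 with an array left out. Leaving aside limma counts, 34 of 54 values under alternatives stayed within 1.5 times the count or within the replicate spread. Among the 34 are the TM4SF4 values with probe sets averaged and with an array left out, which were bound to stay within it. A further 65 are limma counts that stayed at 0, which says nothing about stability. No paired analysis was possible because the vector has 1 array. With 1 vector array and no detection calls, low signals such as those of TM4SF18 and TM4SF20 cannot be told from background.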
